A study of Mus musculus with 4 samples.

Results

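Dnmt3b and Dnmt3l are genes of de novo DNA methylation, picked by symbol from the authors' table of 1593 genes, where each has 1 row, so 2 of 1593 genes are described here. The RNA came from 46C, a line of mouse embryonic stem cells. The PC group was cultured for 24 h in serum with CID755673, an inhibitor of protein kinase D, together with the MEK inhibitor PD0325901 at 1 µM. The PD group received PD0325901 at 1 µM in serum for the same time without CID755673. Every group thus carries the MEK inhibitor, no group without it is used here, and no source used here gives the dose of CID755673. There were 2 libraries per group, made from total RNA. Whether they stem from separate cultures is not stated, so p-values reflect only the spread between libraries, which may be technical. All 4 libraries come from 1 line, and no label says whether the cells grew on feeders.

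De novo methyltransferases place methyl groups on cytosines of CG pairs that carry none, after which maintenance enzymes copy the pattern at replication. Dnmt3b is a catalytically active enzyme of this kind, and Dnmt3l has no activity of its own but binds Dnmt3a and Dnmt3b and stimulates them. In mouse embryonic stem cells both are part of the programme that is low in the naive ground state and higher as cells move towards the formative epiblast.

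The promoter windows of both genes are shown because both transcripts were lower in PC, though by unequal amounts, and because CG pairs are the bases on which de novo methylation acts. Each window runs from 250 bases before an annotated start to 50 bases after it, on the plus strand, from RefSeq on GRCm38.p6, and was matched by symbol. Both genes matched, Dnmt3b with 1 annotated start and Dnmt3l with 3. CG pairs are in capitals.
Dnmt3b, chr2:153649199-153649498: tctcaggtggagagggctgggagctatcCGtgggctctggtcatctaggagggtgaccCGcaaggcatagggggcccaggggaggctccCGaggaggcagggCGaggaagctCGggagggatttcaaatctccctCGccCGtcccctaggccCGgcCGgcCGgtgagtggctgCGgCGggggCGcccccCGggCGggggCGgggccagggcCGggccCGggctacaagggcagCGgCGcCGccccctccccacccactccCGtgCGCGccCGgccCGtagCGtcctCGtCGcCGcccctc
Dnmt3l, first start, chr10:78042037-78042336: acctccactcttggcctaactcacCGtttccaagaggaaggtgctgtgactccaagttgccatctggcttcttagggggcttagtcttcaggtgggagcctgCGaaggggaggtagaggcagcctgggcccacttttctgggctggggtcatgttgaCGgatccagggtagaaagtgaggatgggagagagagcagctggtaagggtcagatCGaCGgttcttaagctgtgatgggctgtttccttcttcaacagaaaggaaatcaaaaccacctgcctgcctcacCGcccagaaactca

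The Dnmt3b window held 30 CG pairs, an observed to expected ratio of 0.69, and 88.3% of all 32851 windows of the same length held fewer. The first Dnmt3l window held 6 CG pairs, a ratio of 0.27, and 43.6% of all windows held fewer. The second and the third Dnmt3l windows held 4 and 3 CG pairs. The median of all windows was 7. The GC box GGGCGG, searched on both strands and itself containing a CG pair, was found 4 times in the Dnmt3b window, once in the first and 2 times in the second Dnmt3l window, and in 35.7% of all windows. The E-box CACGTG, also containing a CG pair, was found once, in the second Dnmt3l window, and in 7.2% of all windows. The letters TAATCC, which Otx factors bind, were in none of the 4 windows and in 7.1% of all. These are matches of letters in windows. The Dnmt3l window printed above lies within the gene Aire, which is on the other strand, and the other Dnmt3l windows do not. Which Dnmt3l start the cells used was not tested, and DNA methylation was not measured.

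**Figure D1:**
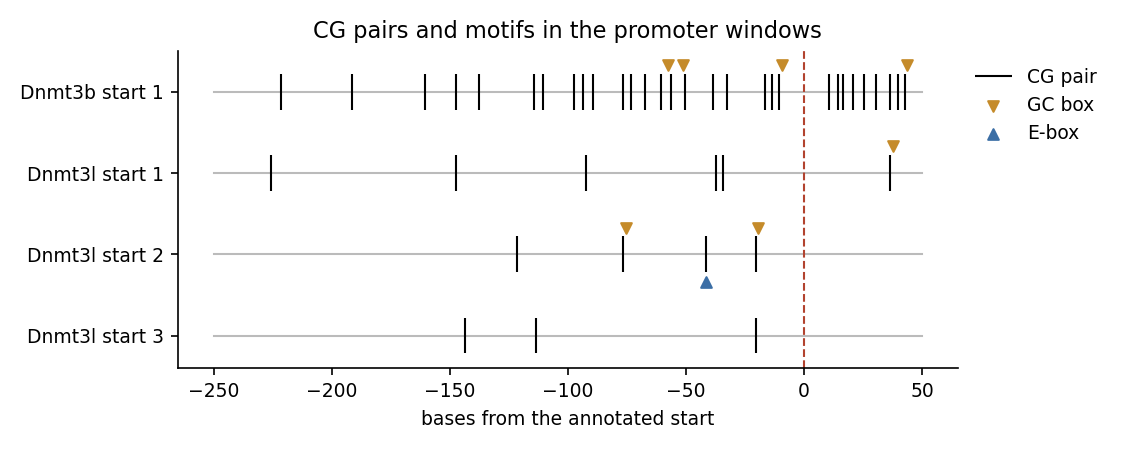
CG pairs (black bars), GC boxes (triangles pointing down) and the E-box (triangle pointing up) in the promoter windows, by distance in bases from each annotated start (dashed line). The Dnmt3b window holds 30 CG pairs, against 6, 4 and 3 in the windows of the 3 Dnmt3l starts.

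Values are normalized reads, that is recovered whole reads divided by 1 size factor per library. Reads on the genes of the table ranged from 433684 to 683777 per library, which is not the depth of the libraries, and the full depth is unknown. The table holds 1593 of the 31432 genes that the authors tested. They were selected on these same libraries, with an absolute log2 change of at least 1 and a p of at most 0.0498. Of these 1593 genes, 980 were lower in PC. In the 4 libraries the embryonic stem cell markers Pou5f1, Sox2 and Nanog cannot be checked, since they are outside the table and are not analysed here. Of 9 such markers Utf1 and Lin28a were listed, and both fell, at 1840.4 ± 75.5 and 3780.7 ± 171.8 normalized reads in PC against 7052.3 ± 576.9 and 8206.3 ± 185.4 in PD (SD, n = 2 each). Of the markers of other cells, 1 of 9 fibroblast, 1 of 7 trophoblast, 2 of 10 extra-embryonic endoderm and 0 of 6 neural progenitor genes were listed. Among these, Gata6 of the endoderm rose, at 423.9 ± 61.7 in PC against 188.6 ± 6.2 in PD (SD, n = 2 each). With a pseudocount of 0.1 its log2 change was again 1.16, with an adjusted p of 0.062 in limma instead of 0.040. Sox17 (65.1 and 26.9), Col3a1 (43.9 and 101.4) and Gata3 (164.0 and 382.1, means of PC and of PD) did not pass the test. Their part in the results below was not tested.

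Dnmt3b fell with CID755673. It had 4076.1 and 4212.4 normalized reads in the PC libraries, against 9408.9 and 8933.0 in the PD libraries. Both PC libraries lay below both PD libraries, as they did for 61.5% of all genes of the table. Over the groups, Dnmt3b averaged 4144.3 ± 96.3 normalized reads in PC and 9170.9 ± 336.5 in PD (SD, n = 2 each), so that PC held 45.2% of the PD level. The log2 change of PC minus PD was -1.15 (SE 0.08, 95% interval -1.35 to -0.94). Its limma adjusted p was 0.013 by the Benjamini-Hochberg method, with the number of tests set to 31432, the genes the authors tested. The p in the authors' deposited table was the 18th smallest of the genes they tested, with a false discovery rate of 2.28e-92.

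Dnmt3l fell further. It had 2521.9 and 2422.0 normalized reads in the PC libraries, against 8361.6 and 8846.9 in the PD libraries. Both PC libraries lay below both PD libraries, which holds for each of the 980 genes of the table that were lower in PC and so follows from the selection of the table. The gap between the groups was larger than the spread within either. Dnmt3l averaged 2472.0 ± 70.6 normalized reads in PC and 8604.2 ± 343.1 in PD (SD, n = 2 each), so that PC held 28.7% of the PD level. The log2 change was -1.80 (SE 0.08, 95% interval -2.01 to -1.59, limma adjusted p = 0.011). The p in the authors' deposited table was the 5th smallest of the genes they tested, with a false discovery rate of 2.99e-184.

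Both genes were called, against a background of 19.8% of the genes of the table called lower and 31.1% called in either direction. By the false discovery rates of the authors' deposited table, 70.2% of its genes passed 0.05, and 43.9% passed it with lower values. Since the genes were chosen with these results known, and the table was selected on them, nothing is read from that count. When libraries were rescaled to the total of the table, 48.6% of the calls were lower, and 15.0% when rescaled by median ratios, against 63.8% with the authors' scaling. The rescalings moved the median log2 change of all genes by 0.28 and 0.99, and the second left Dnmt3b at -0.14 and without a call and Dnmt3l at -0.79 with one. Neither gene passed when any 1 of the 4 libraries was left out, with adjusted p-values of 0.31 to 0.51 for Dnmt3b and 0.27 to 0.43 for Dnmt3l in limma, nor with a prior for the spread that did not follow the level of the gene (adjusted p = 0.18 and 0.14). In bulk RNA, fewer cells with these transcripts and less of them in each cell cannot be told apart.

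**Figure D2:**
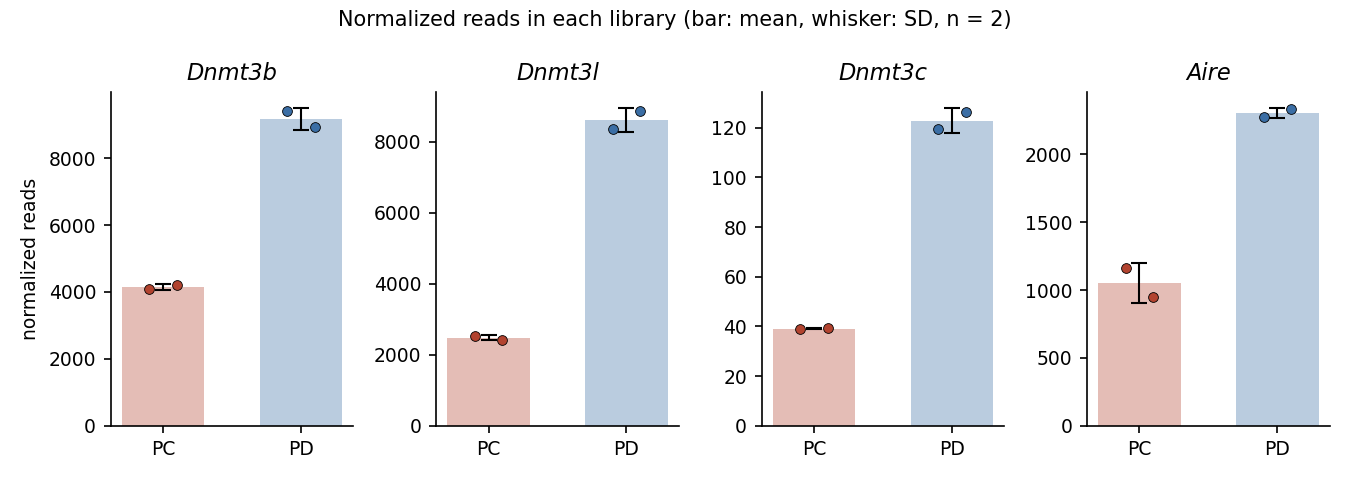
Normalized reads of Dnmt3b, Dnmt3l, Dnmt3c and Aire in each library (points), with the mean (bars) and SD (whiskers, n = 2) of PC and PD. In all 4 genes both PC libraries lie below both PD libraries, as in all 980 genes of the table that were lower in PC, for Dnmt3l at 2521.9 and 2422.0 against 8361.6 and 8846.9.

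Counting error was small against the change. Dnmt3b rested on 4920 and 3541 reads in the PC libraries and on 9703 and 9747 in the PD libraries. Dnmt3l rested on 3044 and 2036 reads in the PC libraries and on 8623 and 9653 in the PD libraries. The 95% exact Poisson intervals of the 2 PC libraries overlapped for each gene, from 3963.0 to 4191.6 and from 4074.8 to 4353.5 normalized reads for Dnmt3b, and from 2433.1 to 2613.1 and from 2318.0 to 2529.6 for Dnmt3l. In PD they did not overlap, since Dnmt3b ran from 9222.6 to 9598.0 and from 8756.5 to 9112.1, and Dnmt3l from 8186.1 to 8540.0 and from 8671.2 to 9025.1. The higher PD library was replicate 1 for Dnmt3b and replicate 2 for Dnmt3l, with differences between the PD libraries of 5.33% and 5.80%. These intervals cover counting error only.

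The ratio of Dnmt3l to Dnmt3b within a library, in which the scaling of that library cancels, was lower in PC. It was 0.619 and 0.575 in the PC libraries, against 0.889 and 0.990 in the PD libraries. The groups did not overlap, and the log2 ratio averaged -0.75 ± 0.07 in PC and -0.09 ± 0.11 in PD (SD, n = 2 each). The difference of -0.65 (SE 0.09) had a two-sided p of 0.333 in an exact permutation test, which is the smallest that this test allows with 2 libraries against 2, so it could not have passed 0.05 whatever the difference. No other test of this difference was run.

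Levels of the genes can be compared only per length, and the choice of length mattered in PC. Per kilobase of all annotated exons (5106 bases for Dnmt3b and 2988 for Dnmt3l in GENCODE M21), Dnmt3l was at 827.3 ± 23.6 normalized reads in PC and 2879.6 ± 114.8 in PD. On that scale Dnmt3b was at 811.6 ± 18.9 in PC and 1796.1 ± 65.9 in PD (SD, n = 2 each). By this measure the level of Dnmt3l was above that of Dnmt3b in PD, and in PC the levels of the genes differed by less than the spread between libraries. Per kilobase of the longest transcript (4320 and 1822 bases), Dnmt3l stood above Dnmt3b in each group, at 1356.7 ± 38.8 against 959.3 ± 22.3 in PC and at 4722.4 ± 188.3 against 2122.9 ± 77.9 in PD (SD, n = 2 each). Which transcripts the cells made is not known from a table of genes.

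Both transcripts were among the most abundant of the table, Dnmt3b 11th and Dnmt3l 17th by mean normalized reads. Of the 120 genes with a mean of at least 1000 normalized reads, 71 were lower in PC, with a median log2 change of -1.28. Among these 71 Dnmt3l had the 11th largest fall and Dnmt3b the 50th. Calls were usual at this level, since 68 of the 120, or 56.7%, were called lower. Over all 980 genes that were lower in PC, whose median log2 change was -1.53, 65.1% had a smaller fall than Dnmt3l and 15.5% a smaller fall than Dnmt3b.

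**Figure D3:**
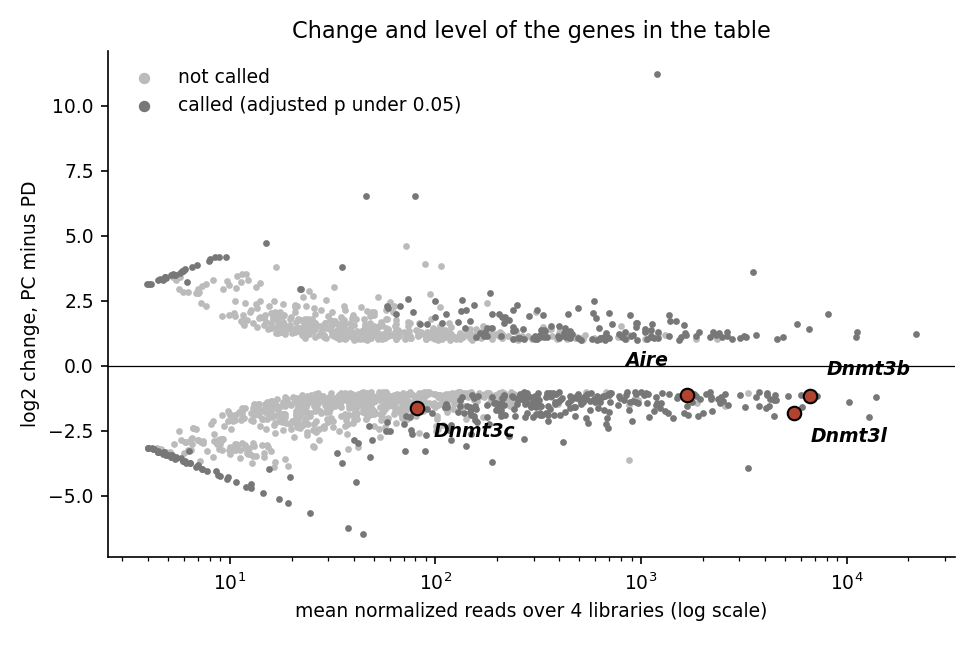
Log2 change of PC minus PD against the mean normalized reads over 4 libraries (log scale) for the 1593 genes of the table, called genes in dark grey and the others in light grey, with Dnmt3b, Dnmt3l, Dnmt3c and Aire in red. Dnmt3b (-1.15) and Dnmt3l (-1.80) lie at the abundant end, and the empty band around 0 is the selection of the table.

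The neighbours of both genes in the genome were looked up in GENCODE M21 on GRCm38 by gene ID. The submitters' processing notes name the older build mm9, and no coordinates were converted. Dnmt3b (ENSMUSG00000027478) lies on the plus strand of chr2:153649450-153687730. Dnmt3c, which arose in rodents as a copy of Dnmt3b and methylates young retrotransposons in male germ cells of the mouse, begins 8921 bases past its end on the same strand. Dnmt3c (ENSMUSG00000082079) had 38.9 and 39.3 normalized reads in the PC libraries, against 119.3 and 126.5 in the PD libraries. It fell, with a log2 change of -1.63 (SE 0.22, limma adjusted p = 0.042), but it did not pass with a pseudocount of 0.1 (adjusted p = 0.053), with libraries rescaled to the total of the table (adjusted p = 0.081), or by median ratios.

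The Dnmt3c values are uncertain because the genes share sequence. Of the 2193 distinct windows of 31 bases in the Dnmt3c transcript, 699 or 31.9% also occur in Dnmt3b transcripts, and these make up 13.5% of the windows of Dnmt3b. Dnmt3c had 0.955% and 0.932% as many normalized reads as Dnmt3b in the PC libraries, against 1.27% and 1.42% in the PD libraries. No source used here says how reads that match both genes were counted, so reads of Dnmt3b in the Dnmt3c row cannot be told apart from its own. For Dnmt3b itself the Dnmt3c row amounts to a small share of its reads. The antisense gene Dnmt3bos overlaps Dnmt3b without a shared exon base, and it and the next gene below, Commd7, are outside the table.

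Dnmt3l (ENSMUSG00000000730) lies on the plus strand of chr10:78041947-78063622. The beginning of the gene overlaps Aire, the autoimmune regulator of the thymus, which lies on the other strand at chr10:78030022-78043610. Of the 3 annotated Dnmt3l starts, only start 1 has its promoter window, chr10:78042037-78042336, within Aire. The windows of starts 2 and 3 begin at 78049592 and 78055085, past Aire. Aire (ENSMUSG00000000731) had 1159.0 and 949.3 normalized reads in the PC libraries, against 2278.8 and 2331.5 in the PD libraries. It also fell, with a log2 change of -1.14 (SE 0.12, limma adjusted p = 0.022), and did not pass with libraries rescaled to the total of the table (adjusted p = 0.069) or by median ratios. The genes share 67 exon bases, which are 2.24% of the exon bases of Dnmt3l and 1.75% of those of Aire. No source used here says whether the counting used strand, so reads on the shared bases cannot be told apart. The ratio of Dnmt3l to Aire was 2.18 and 2.55 in the PC libraries, against 3.67 and 3.79 in the PD libraries, with a difference of -0.66 on the log2 scale (SE 0.12, two-sided exact permutation p = 0.333, the smallest this test allows with 2 libraries against 2). Beyond Aire, Pfkl and Icosl are the next genes on either side of Dnmt3l, and both are outside the table.

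Few of the other genes of DNA methylation were in the table, but it holds only 1593 of the 31432 genes the authors tested. Nothing is read from how many were listed. Of 6 DNA methyltransferase genes 3 were listed, Dnmt3b, Dnmt3l and Dnmt3c, and all 3 fell, where 19.8% of the genes of the table were called lower, and 56.7% of those with a mean of at least 1000 normalized reads. Their median log2 change was -1.63, against -1.53 over the 980 genes lower in PC and -1.17 over all genes of the table, and the Dnmt3c row among them may hold reads of Dnmt3b. Dnmt1, the maintenance enzyme, and Dnmt3a, the other active de novo enzyme, are outside the table and not analysed here. Of 21 genes of maintenance and recruitment, among them Uhrf1, which brings Dnmt1 to replicated DNA, 0 were listed. Of 12 readers of methylated DNA 0 were listed, so none is analysed here. Of 12 genes for the removal of methylation, among them the Tet dioxygenases, Gadd45b was the 1 listed. Gadd45b, a stress-induced gene tied to DNA repair and demethylation, rose to 1870.7 and 1921.2 normalized reads in the PC libraries, against 897.9 and 809.3 in the PD libraries. Its log2 change was 1.15 (SE 0.10, limma adjusted p = 0.014), and 11.2% of the genes of the table were called higher. A gene absent from the table may have missed its fold limit or its p limit, been left untested, or carry another symbol there. Absence does not mean that its level was the same in the groups.

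Of 20 transcription factors that act on, or share the programme of, Dnmt3b and Dnmt3l in embryonic stem cells, 5 were listed and all 5 fell, where 61.5% of the genes of the table were lower and 19.8% were called lower. Their median log2 change of -1.53 was the same as that of all 980 genes lower in PC. Prdm1, a repressor that mouse germ cell precursors need, fell to 229.5 and 215.3 normalized reads in the PC libraries, against 686.5 and 683.7 in the PD libraries, a log2 change of -1.62 (SE 0.11). Prdm14, a related factor that represses Dnmt3b and Dnmt3l in mouse embryonic stem cells, is outside the table and not analysed here. The epiblast factors Otx2, Pou3f1 and Foxd3 changed by -1.29, -2.02 and -1.13 on the log2 scale, and the growth regulator Myc by -1.53. None of the 5 stayed called when libraries were rescaled by median ratios, which shifts the whole table upwards. Otx2, the most abundant of these, had 2565.0 and 2342.3 normalized reads in the PC libraries, against 5913.2 and 6114.8 in the PD libraries. Of 11 markers of the formative and primed epiblast, 7 were listed, all with lower values, and 5 fell. Over the table the same shares of 61.5% lower and 19.8% called lower hold. Among the 7, Fgf5, a growth factor of that stage, had the largest fall, -2.68 (SE 0.24), while Lef1 and Car14 did not pass (limma, adjusted p = 0.13 and 1.0). Apart from Fgf5, the markers that fell were Dnmt3b itself and Otx2, Pou3f1 and Foxd3, already counted above. Both lists were chosen with earlier results of these data known, so nothing is read from these counts. Of 17 genes of methyl donor supply, Tdh was the 1 listed. Tdh, the threonine dehydrogenase of mouse embryonic stem cells, was the 2nd most abundant gene of the table and fell to 8712.3 and 8332.0 normalized reads in PC, against 19249.3 and 19516.6 in PD, a log2 change of -1.19 (SE 0.08, limma adjusted p = 0.012).

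Genes whose promoters or imprinted regions are methylated in some mouse cells went in either direction. Whether they are methylated in the cells used here was not measured. Of 36 germline genes of this kind 5 were listed. The meiotic genes Stra8 and Rec8 rose, Rec8, a cohesin of meiosis, to 12749.5 and 13345.0 normalized reads in PC, against 3393.9 and 3162.8 in PD, a log2 change of 1.99 (SE 0.08), and Stra8 by 3.61 (SE 0.16). The testis gene Tex101 averaged 60.1 ± 4.2 normalized reads in PC and 155.4 ± 20.2 in PD (SD, n = 2 each) and did not pass (limma, adjusted p = 0.062). The reproductive homeobox genes Rhox6 and Rhox9 had log2 changes of -1.29 and -1.37 and did not pass either (limma, adjusted p = 0.12 and 0.10). Of 35 imprinted genes 2 were listed. Magel2, expressed from the paternal copy, fell to 138.4 and 147.5 normalized reads in PC, against 348.1 and 369.3 in PD, a log2 change of -1.32 (SE 0.13, limma adjusted p = 0.019). H19, a long non-coding RNA expressed from the maternal copy, averaged 87.8 ± 18.8 in PC and 200.9 ± 10.7 in PD (SD, n = 2 each) and did not pass (limma, adjusted p = 0.10). Stra8 and Rec8 stayed called when libraries were rescaled by median ratios, and Magel2 and Tdh did not. That rescaling moved the median log2 change of all genes up by 0.99, which favours genes that rose. Which calls it left therefore does not separate firm changes from weak ones. In all, 17 of the 159 genes on these lists were in the table, as were 1593 of the 31432 genes the authors tested. Of the 17, 10 were called lower and 3 higher, where 19.8% of all genes of the table were called lower and 11.2% higher. The 17 include Dnmt3b and Dnmt3l, and the lists were chosen with earlier results of these data known. Nothing is therefore read from these counts. Of the genes called lower on these lists, only Dnmt3l stayed called when libraries were rescaled by median ratios.

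**Figure D4:**
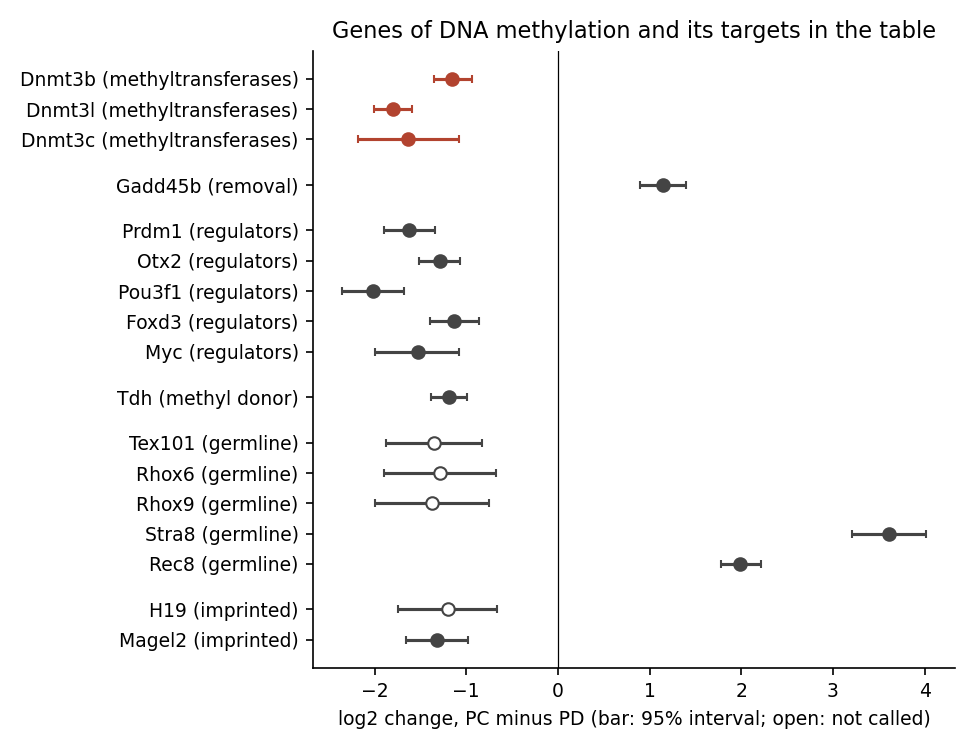
Log2 change of PC minus PD with its 95% interval for the 17 genes of the DNA methylation lists that are in the table, with filled points for called genes and open points for the others. The 3 genes of the DNA methyltransferase family (red) lie between -1.80 and -1.15, and Gadd45b, Stra8 and Rec8 lie above 0.

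The genes most like Dnmt3b and Dnmt3l were found by the Euclidean distance between log2 values over the 4 libraries, each gene centred on its own mean, among 596 other genes with a mean of at least 100 normalized reads. Pcx, the pyruvate carboxylase gene, lay nearest to Dnmt3b at a distance of 0.045. It averaged 3193.4 ± 112.0 normalized reads in PC and 7178.2 ± 93.8 in PD (SD, n = 2 each), a log2 change of -1.17. Plbd1, Adgrf5, Rprm and the major vault protein gene Mvp followed at distances of 0.059 to 0.079, with log2 changes from -1.18 to -1.11. Arhgdib lay nearest to Dnmt3l at 0.069, with 132.2 ± 5.2 normalized reads in PC and 484.1 ± 15.3 in PD (SD, n = 2 each) and a log2 change of -1.87. Zmat4, Zfp819, the annexin gene Anxa8 and AC154266.1 followed at 0.082 to 0.131, with log2 changes from -1.82 to -1.76. Neither gene was among the 5 nearest of the other. With 4 libraries in 2 groups such a distance mostly measures the size of the change.

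**Figure D5:**
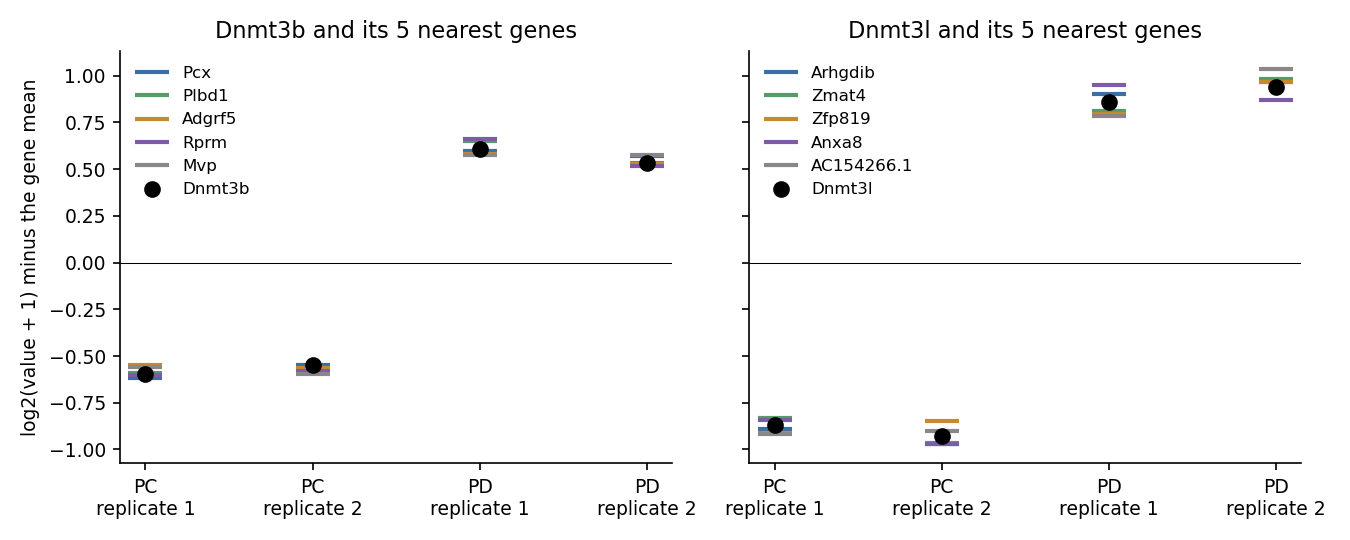
Log2(value + 1) minus the mean of the gene over the 4 libraries, for Dnmt3b (left) and Dnmt3l (right) as black points and the 5 nearest genes of each as coloured dashes. PC libraries lie below 0 and PD libraries above it in every gene shown, with log2 changes near -1.15 on the left and -1.80 on the right.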

How the data were processed

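Genes and lists were chosen with earlier results of these data known. The authors deposited 1 table whose library columns are log2 values, per the file headers and the values. With the log undone and 1 subtracted, 100.0% of values were whole multiples of 1 step per library, within 0.001 reads, so the deposited values are log2 of reads divided by a size factor, plus 1. The size factors were 1.207 and 0.8406 for PC replicates 1 and 2 and 1.0313 and 1.0911 for PD replicates 1 and 2. The deposited p-values and false discovery rates come from the authors' own test, which is not named in the sources used here. Bowtie 0.12.2 and mm9 appear in the submitters' processing notes, without a role.

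For log2(value + 1), limma 3.58.1 (R 4.3.3) was run over the genes with a mean of at least 1 normalized read, with a trended prior, no replicate block and 2 residual degrees of freedom. Benjamini-Hochberg adjustment took 31432 as the number of genes tested, worked out from the smallest deposited p and its false discovery rate. Only genes of the table were fitted. A gene was called below an adjusted p of 0.05. Every adjusted p is of this kind. The spread came from genes selected for a small p, which can make it too small. The chi-square per degree of freedom between the libraries of a group was 6.81 in PC and 7.12 in PD, so they were not copies. The main test did not use counts as such, because the deposited unit is log2. Recovered whole reads were used for voom, for the Poisson intervals and for the chi-square. On simulated reads the procedure recovered the set changes in the median. Those reads were not selected by fold or p as the table was, so the run does not test the calls made here. Named genes were Dnmt3b and Dnmt3l, all listed members of the gene lists, their listed neighbours, and the 5 genes nearest to each in pattern. Bend3, Grhl2 and Gstt1, chosen after their values were seen, were added and count among the other named genes below. Alternatives were other pseudocounts, filters, scalings, priors, voom on recovered reads, the replicate block and leaving out each library.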

Additional observations from a re-analysis of the deposited data

How the results depend on the processing

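Dnmt3b and Dnmt3l were lower in PC under each alternative run. Both stayed called with pseudocounts of 0.1 and 10, without a filter and with a mean of at least 10, with voom, when rescaled to the total of the table, when adjusted over the table alone, and in the authors' deposited table. Leaving out each library ended the call of both genes, with log2 changes of -1.18 to -1.11 for Dnmt3b and -1.84 to -1.76 for Dnmt3l, and 33 to 61 genes called in all instead of 495. Each such fit has 1 residual degree of freedom and takes the spread of the lone library from the other group. A prior without a trend left the changes at -1.15 and -1.80 with no call and called 1 gene in all, and rescaling by median ratios gave -0.14 for Dnmt3b and 307 calls. The median ratios centre a table in which most genes were selected as lower, so the fall of a typical gene is removed by construction. The number of calls was 1176 with the replicate block, 1536 when adjusted over the table alone and 1119 by the authors' false discovery rates, an alternative chosen after seeing the data. The replicate numbers share no stated culture, and the deviations of same-numbered libraries had a correlation of -5.8e-05 across the genes of the table. Since the table was selected on these libraries, that value cannot settle whether same-numbered libraries share a culture. With the replicate block Dnmt3b changed by -1.15 and Dnmt3l by -1.80, both called. The difference of the Dnmt3l to Dnmt3b ratio kept its sign in every alternative run for it. Of 38 other named genes, 27 were called, and all 27 lost the call when any 1 library was left out, while none changed direction in any alternative. Rescaling by median ratios ended 22 of the 27 calls, rescaling to the total ended 4 and a pseudocount of 0.1 ended 3, while voom added 4. The full depth of the libraries is unknown.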

Other observations

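The table's own annotation of biological processes lists DNA modification for 6 genes, of which Bend3, Grhl2 and Gstt1 were on none of the lists and were chosen after their values were seen. Cells of that annotation hold at most 50 terms, so it can miss genes. Bend3, a transcriptional repressor, had 942.8 and 807.7 normalized reads in the PC libraries, against 3255.2 and 2973.1 in the PD libraries. Its log2 change was -1.83 (SE 0.12, limma adjusted p = 0.012). That change was close in size to the -1.80 of Dnmt3l, and the difference between them was not tested. Grhl2, an epithelial transcription factor, had 664.4 and 632.9 normalized reads in PC, against 1699.9 and 1763.3 in PD, a log2 change of -1.42 (SE 0.09, limma adjusted p = 0.012). Gstt1, a glutathione transferase, averaged 273.3 ± 24.8 in PC and 119.5 ± 38.1 in PD (SD, n = 2 each) and did not pass (limma, adjusted p = 0.17).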
